A study of Mus musculus with 10 samples.

Results

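A set of 10 genes that define the connective tissue mast cell of mouse skin was followed in skin that had passed through the DMBA/TPA carcinogenesis protocol. They were chosen by symbol as known genes of that cell, not by a threshold on measured values, but with earlier results of these data known. They are 10 of the 24452 named genes in the count table, and all 10 passed the filter on low counts. They encode the chymases Cma1 and Mcpt4, the tryptases Tpsb2 and Tpsab1, carboxypeptidase Cpa3, the α and β chains Fcer1a and Ms4a2 of the high-affinity IgE receptor, the histamine-forming enzyme Hdc, and the receptors Mrgprb1 and Mrgprb2.

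Mast cells are long-lived tissue cells that mature in the dermis under Kit ligand and store histamine, heparin and large amounts of protease in granules. Cross-linking of receptor-bound IgE, or engagement of Mrgprb2 by cationic peptides and drugs, releases the granules. Connective tissue mast cells carry chymase, tryptase and Cpa3 together, whereas mucosal mast cells carry Mcpt1 and Mcpt2.

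RNA was sequenced from whole-thickness back skin, treated but free of tumor, of 5 WT and 5 Zfp36ΔARE mice on the C57BL/6 strain, 1 library per mouse. Zfp36ΔARE mice carry a deletion of an AU-rich instability region in the 3′-UTR of the endogenous Zfp36 gene, which encodes the mRNA-destabilizing protein TTP, in every cell of the body, and the WT mice were littermates. Both groups were 7 weeks old at the start and received 400 nmol of DMBA once, the mutagen that initiates lesions, and then 10 nmol of TPA, the promoting phorbol ester, 2 times a week for 20 weeks. There was no untreated skin, so all values are from chronically treated skin.

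Depth was 19595035 to 36419573 counts per library. Zfp36 itself was higher in all 5 Zfp36ΔARE libraries than in any WT library (5427 ± 766 against 2152 ± 277 normalized counts, SD, n = 5 each, log2 fold change 1.33, edgeR adjusted p = 0.0019). A normalized count is the deposited count scaled by the TMM method to a common library size. Counts of Y-linked genes were 3349 to 4262 in Zfp36ΔARE replicates 2 to 5 and at most 1 in the other 6 libraries. The female-specific transcript Xist had 16154 to 21085 normalized counts in WT and 21047 in Zfp36ΔARE replicate 1. It had 5.27 to 16.5 in Zfp36ΔARE replicates 2 to 5. The labels do not give sex. Between WT and those 4 libraries, effects of sex and of genotype cannot be told apart for any gene, the mast cell genes included. WT replicates 1 and 3 held the lowest level of hair shaft keratins, with a mean log2(CPM + 1) of 5.02 and 2.12 against 8.07 to 8.48 in the other WT libraries and 9.16 to 10.77 in Zfp36ΔARE, and results without these 2 libraries are given beside the calls.

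The 10 genes lie on 7 chromosomes of the GRCm38 mouse genome in the GENCODE annotation, and none shares exon bases with another gene. The chymase genes lie in the mast cell protease cluster of chromosome 14, Cma1 at chr14:55941451-55944675 and Mcpt4 at chr14:56059629-56062313, both on the minus strand with up to 5 exons. The tryptase genes lie close together on chromosome 17, Tpsb2 at chr17:25366305-25369098 on the plus strand and Tpsab1 at chr17:25343245-25345562 on the minus strand. Mrgprb1 (chr7:48444113-48456342) and Mrgprb2 (chr7:48550965-48558086) are both on the minus strand of chromosome 7. Cpa3 (chr3:20215620-20242181), Ms4a2 (chr19:11615523-11623719), Fcer1a (chr1:173221284-173227214) and Hdc (chr2:126593667-126619299) each lie apart from the other genes of the set, all on the minus strand. Because several of these are members of multigene families, transcripts were compared 50 bases at a time with those of all other genes. Cma1 shared 5.38% of its stretches with Gm48934, Mcpt4 shared 5.48% with Cma2 and Mcpt9, and Ms4a2 shared 2.1% with Ms4a4b. Hdc shared 0.141%, and the tryptases, Cpa3, Fcer1a and both Mrgprb genes shared 0.

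GATA1 and GATA2 are transcription factors of the mast cell lineage, and the bases before the start of each gene were read to show what its promoter holds. The RefSeq table for GRCm38.p6 had an entry for 8 of the 10 genes. A GATA hexamer (GATA with A or T before it and A or G after it, on either strand) occurred in the 250 bases before the start in 8 of these 8 genes, and in 26.5% of all 32851 such windows. The E-box letters CATGTG or CACGTG, on either strand, occurred in 1 of the 8, in Fcer1a at 208 bases before the start, and in 17.6% of all windows. The lines give the hexamer nearest to the start in capitals with up to 20 bases on each side, written along the gene's strand, which is the minus strand for each. A capital block that holds TATC is a match on the opposite strand. Ms4a2 and Mrgprb1 show 2 matches, and a further match of Ms4a2, at 224 bases before the start, lies outside the bases shown.
Cma1 (chr14:55944729-55944774): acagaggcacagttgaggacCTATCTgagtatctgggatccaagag
Mcpt4 (chr14:56062388-56062433): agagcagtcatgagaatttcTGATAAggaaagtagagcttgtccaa
Cpa3 (chr3:20242202-20242247): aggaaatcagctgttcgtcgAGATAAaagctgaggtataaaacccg
Ms4a2 (chr19:11623720-11623776): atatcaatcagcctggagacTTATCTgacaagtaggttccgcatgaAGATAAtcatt
Fcer1a (chr1:173227296-173227341): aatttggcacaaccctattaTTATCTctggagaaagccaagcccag
Hdc (chr2:126618874-126618919): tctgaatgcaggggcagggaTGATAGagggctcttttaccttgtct
Mrgprb1 (chr7:48456423-48456496): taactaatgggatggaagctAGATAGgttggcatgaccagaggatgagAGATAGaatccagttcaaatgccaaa
Mrgprb2 (chr7:48558109-48558154): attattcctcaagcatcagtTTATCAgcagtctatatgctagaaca
The match began 79 bases before the start in Cma1, 103 in Mcpt4, 46 in Cpa3, 37 and 11 in Ms4a2, 92 in Fcer1a, 221 in Hdc, 134 and 106 in Mrgprb1 and 48 in Mrgprb2. The Hdc stretch lies in an intron of a longer annotated transcript of that gene. A match in letters does not show that a factor binds there.

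Mast cell transcripts were lower in Zfp36ΔARE skin as a group. With a call defined as a fold change over 2 and an edgeR adjusted p under 0.05 over all 15543 genes tested, 9 of the 10 genes were called lower, Tpsab1 being the exception, and 0 were called higher. Over all genes tested, 6.64% were called lower and 1.67% higher. Without the condition on fold, the same 9 passed as lower, against 19.1% of all genes. In these 9 genes all 5 Zfp36ΔARE libraries lay below all 5 WT libraries, which held for 11.9% of all genes tested. The median log2 fold change of the 10 genes was -1.69, against 0.01 over all genes tested. In whole skin, fewer mast cells and less RNA per mast cell cannot be told apart.

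**Figure D1:**
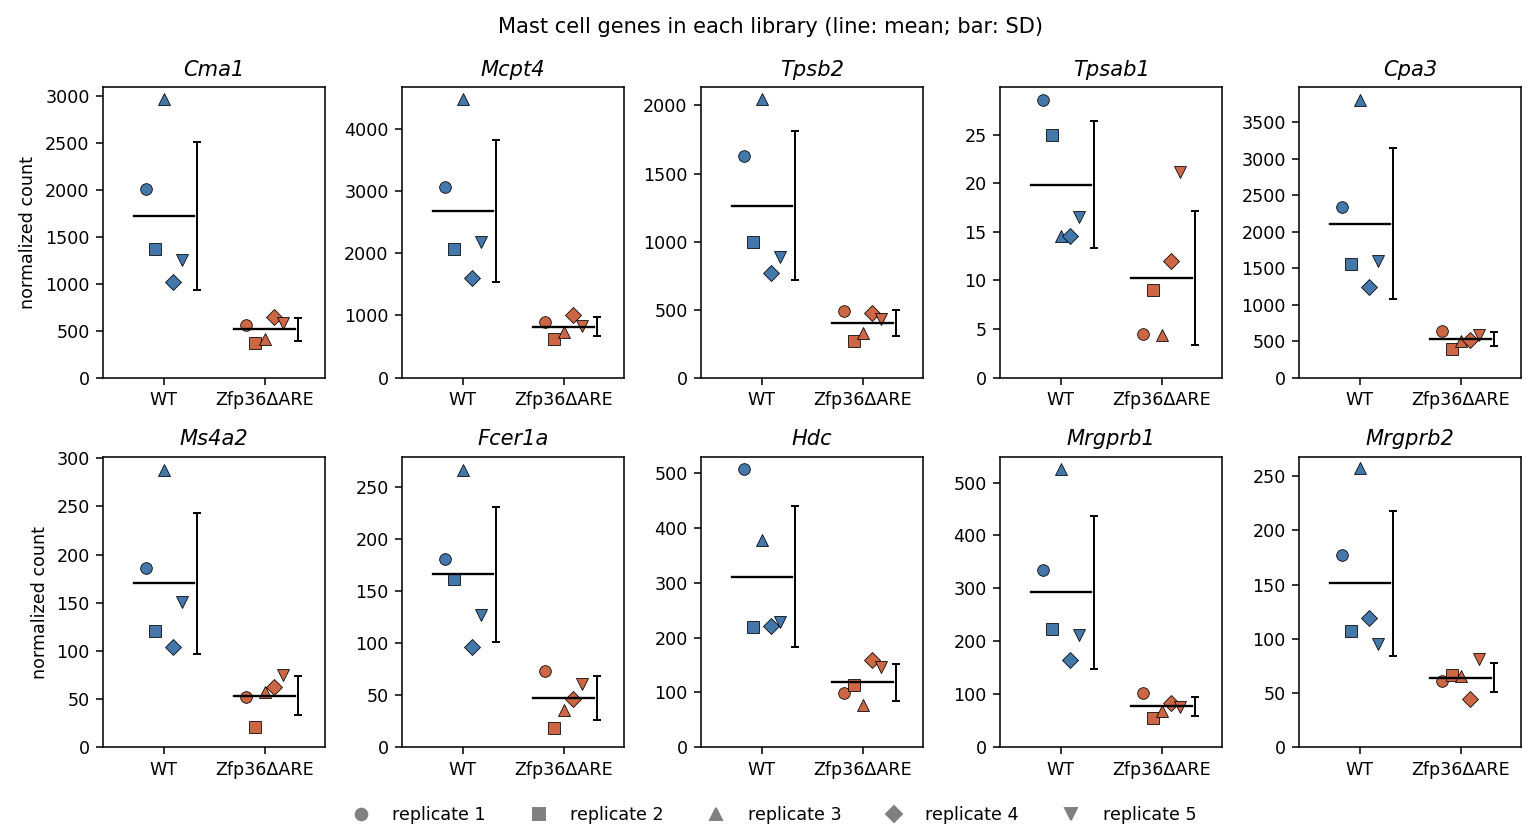
Normalized counts (vertical axis of each panel, starting at 0) of the 10 mast cell genes in each of the 5 WT and 5 Zfp36ΔARE libraries, with a symbol per replicate number, a line at the group mean and a bar for the SD. In 9 panels every Zfp36ΔARE point lies below every WT point, and in the Tpsab1 panel Zfp36ΔARE replicate 5 (21.1) lies above 3 WT points.

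Among the proteases, the chymase Mcpt4 carried the most reads, followed in the group means by Cpa3 and then the chymase Cma1. Mcpt4, the mouse counterpart in function of human chymase, had 3071, 2065, 4473, 1601 and 2181 normalized counts in WT replicates 1 to 5 and 896, 617, 729, 1008 and 832 in Zfp36ΔARE replicates 1 to 5. The highest Zfp36ΔARE library was thus well under the lowest WT library, and the means fell 3.28-fold, from 2678 ± 1136 to 816 ± 151 (SD, n = 5 each; log2 fold change -1.71, SE 0.26, edgeR adjusted p = 0.0047). Cma1, an α-chymase, had 2011, 1373, 2965, 1016 and 1249 counts in WT and 566, 369, 408, 652 and 578 in Zfp36ΔARE skin. Its fitted change was 3.35-fold lower (log2 -1.74, SE 0.29, edgeR adjusted p = 0.0054). Both chymases were highest in WT replicate 3 and lowest among WT mice in replicate 4.

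The tryptases differed from each other in level and in outcome. Tpsb2, the main secreted tryptase of mouse skin mast cells, had 1626, 995, 2045, 771 and 888 counts in WT and 493, 272, 328, 478 and 430 in Zfp36ΔARE skin, with no overlap. It fell 3.16-fold (log2 -1.66, SE 0.29, edgeR adjusted p = 0.006). Tpsab1 encodes the tryptase for which C57BL/6 mice are known to carry a splice-site mutation. It was near the lower limit of what this depth could measure, with 4 to 31 raw counts per library and at least 10 in 5 WT but only 2 Zfp36ΔARE libraries. It had 28.6, 25.0, 14.6, 14.6 and 16.5 normalized counts in WT and 4.50, 9.05, 4.39, 12.0 and 21.1 in Zfp36ΔARE skin. The groups overlapped through Zfp36ΔARE replicate 5, and the difference did not pass (log2 -1.03, SE 0.42, edgeR adjusted p = 0.08). Without that library it passed, at log2 -1.46 and an edgeR adjusted p of 0.024. With any other single library left out it did not pass (edgeR adjusted p 0.079 to 0.17). Nor did it pass without WT replicates 1 and 3 (log2 -0.95, edgeR adjusted p = 0.21).

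Cpa3, the granule carboxypeptidase that trims peptides and venom toxins, showed the largest change of the 10. It had 2338, 1557, 3810, 1249 and 1605 counts in WT and 641, 394, 501, 511 and 591 in Zfp36ΔARE skin. The Zfp36ΔARE libraries varied little (528 ± 94.6) beside WT (2112 ± 1030), and the fitted level was 25.0% of that in WT (log2 -2.00, SE 0.29, edgeR adjusted p = 0.0044). Cma1, Mcpt4, Tpsb2 and Cpa3 together made up most of the reads of the 10 genes in both groups.

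The chains of the IgE receptor fell with the proteases. Fcer1a, the chain that binds IgE, had 181, 162, 267, 96.1 and 127 counts in WT and 73.4, 19.0, 36.2, 46.7 and 60.7 in Zfp36ΔARE skin. Its level fell 3.51-fold (log2 -1.81, SE 0.37, edgeR adjusted p = 0.0082). Ms4a2, the signal-amplifying β chain, had 186, 121, 288, 104 and 151 counts in WT and 51.7, 20.8, 57.1, 62.8 and 75.2 in Zfp36ΔARE skin. It fell 3.19-fold (log2 -1.68, SE 0.36, edgeR adjusted p = 0.0093). Both chains were lowest in Zfp36ΔARE replicate 2, which was also the lowest Zfp36ΔARE library for 7 of the 10 genes.

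Hdc, which makes histamine from histidine and is not restricted to mast cells, had 508, 220, 378, 222 and 229 counts in WT and 98.9, 113, 76.9, 159 and 146 in Zfp36ΔARE skin. WT replicate 1 was the highest library, unlike for most of the other genes, and Hdc fell 2.63-fold (log2 -1.40, SE 0.29, edgeR adjusted p = 0.0088). With WT replicates 1 and 3 left out it was lower by under 2-fold (log2 -0.92, edgeR adjusted p = 0.024).

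The Mas-related receptors are known as markers of connective tissue mast cells. Mrgprb2, through which cationic drugs and peptides such as substance P activate mast cells without IgE, had 177, 107, 257, 119 and 94.9 counts in WT and 61.4, 67.0, 65.9, 44.1 and 81.8 in Zfp36ΔARE skin. The nearest libraries of the groups lay close together, and its 2.35-fold fall was the smallest of the called genes (log2 -1.23, SE 0.29, edgeR adjusted p = 0.012). Its call rested on the condition on fold, since without WT replicate 3 it stood at log2 -0.96 (edgeR adjusted p = 0.015), and without WT replicates 1 and 3 at -0.74 (adjusted p = 0.034). Mrgprb1, a close relative with no well-defined ligand, had 335, 224, 525, 165 and 213 counts in WT and 102, 55.2, 68.1, 84.1 and 76.5 in Zfp36ΔARE skin. It fell further, 3.77-fold (log2 -1.91, SE 0.31, edgeR adjusted p = 0.0053).

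**Figure D2:**
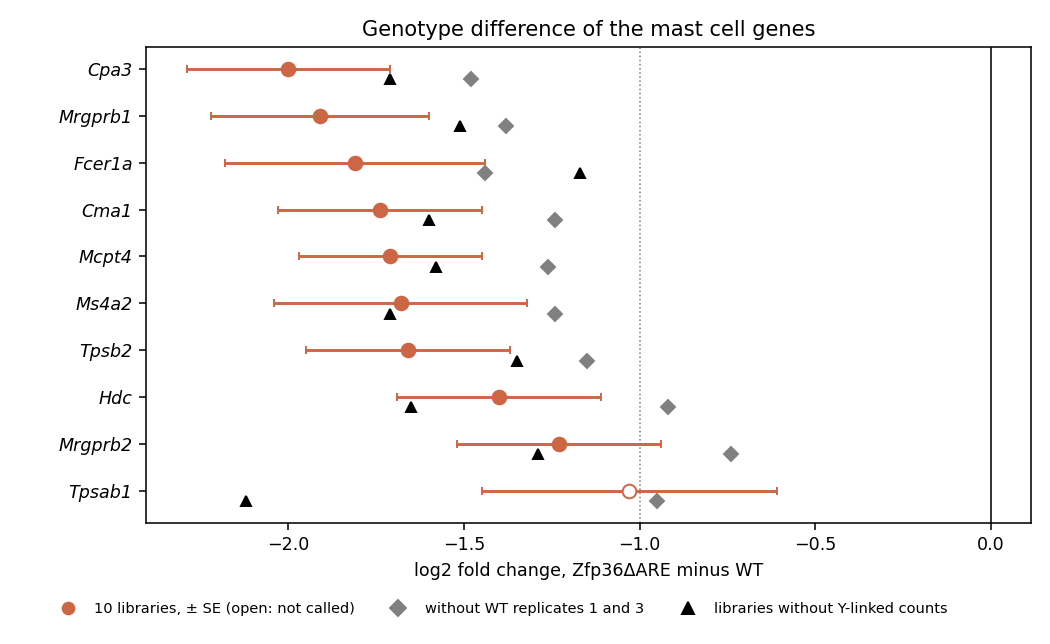
Log2 fold change (horizontal axis, Zfp36ΔARE minus WT) of each mast cell gene in all 10 libraries (circles with SE, open where not called), without WT replicates 1 and 3 (diamonds) and in the 6 libraries without Y-linked counts (triangles), with a dotted line at 2-fold. Every point lies below 0, Cpa3 is lowest in all 10 libraries at -2.00, and without WT replicates 1 and 3 the points of Hdc (-0.92), Mrgprb2 (-0.74) and Tpsab1 lie above the line.

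The call for each of the 9 genes was also examined in the libraries that could be doubted. Without WT replicates 1 and 3, 7 of the 10 genes were called lower and 9 had an edgeR adjusted p under 0.05, where 2.11% of all genes tested were called lower, and the median log2 fold change was -1.24. In the 6 libraries without Y-linked counts, which hold 1 Zfp36ΔARE mouse and assume that it varies as the WT mice do, edgeR called 0 of the 10 genes and 0 of all genes. In that fit all 10 genes were still fitted lower, 6 of them at an unadjusted p under 0.05, and the 9 called genes lay between log2 -1.17 (Fcer1a) and -1.71 (Cpa3 and Ms4a2), with edgeR adjusted p-values of 0.3 to 0.34. Tpsab1, which had the fewest counts, stood at -2.12 there (edgeR adjusted p = 0.3).

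Per length of transcript and sequencing depth, Mcpt4, Cma1, Cpa3 and Tpsb2 stood above the rest and Tpsab1 below. In FPKM (fragments scaled by gene length and library size, computed here from the counts and the gene lengths of the count table), WT skin held 101 ± 43.0 for Mcpt4, 59.2 ± 27.0 for Cma1, 54.5 ± 26.6 for Cpa3 and 43.6 ± 18.9 for Tpsb2 (SD, n = 5). The levels of Cma1, Cpa3 and Tpsb2 lay within 1 SD of each other. Fcer1a (6.09 ± 2.38) and Hdc (4.87 ± 2.01) came next, Mrgprb2 (2.73 ± 1.22), Mrgprb1 (2.62 ± 1.29) and Ms4a2 (2.26 ± 0.972) could not be ordered within their spread, and Tpsab1 was last at 0.625 ± 0.204. In Zfp36ΔARE skin Mcpt4 was again first at 30.9 ± 5.71 FPKM, followed by Cma1 (17.7 ± 4.13), Tpsb2 (13.8 ± 3.32) and Cpa3 (13.6 ± 2.44). Tpsab1 was again last at 0.321 ± 0.217 FPKM.

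From mouse to mouse within a genotype, 7 of the 10 genes rose and fell together, whereas Tpsab1 did not, and Hdc and Mrgprb2 did so only while WT replicates 1 and 3 were included. Summed over the 10 genes, WT libraries held 10463, 6847, 15023, 5358 and 6755 normalized counts and Zfp36ΔARE libraries 2988, 1936, 2275, 3058 and 2892, which is 0.0202% to 0.0569% of all counts in WT and 0.00709% to 0.0112% in Zfp36ΔARE skin. WT replicate 3 was the highest WT library in 8 genes and replicate 4 the lowest in 8. Zfp36ΔARE replicates 1 to 4 each lay below every WT library in 10 of 10 genes, and replicate 5 in 9. Pearson's r between a gene's log2(CPM + 1), centred on its genotype mean, and the mean of the other 9 over the 10 libraries was 0.98 for Cma1 and Tpsb2, 0.96 for Mcpt4, and 0.95 for Cpa3 and Mrgprb1. It was 0.87 for Ms4a2 and Fcer1a, 0.70 for Hdc, 0.69 for Mrgprb2 and 0.17 for Tpsab1. Without WT replicates 1 and 3, over 8 libraries, r stayed between 0.75 and 0.94 for Cma1, Mcpt4, Tpsb2, Cpa3, Ms4a2, Fcer1a and Mrgprb1, but was 0.44 for Tpsab1, 0.37 for Hdc and -0.29 for Mrgprb2. These r values are descriptions, over genes read from the same libraries.

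To see whether the genes changed in equal measure, each was expressed per 100 counts of Cma1 in the same library. Mcpt4 stood at 153, 150, 151, 158 and 175 per 100 Cma1 counts in WT and 158, 167, 178, 155 and 144 in Zfp36ΔARE skin, and the ratio of the chymases differed by less than its spread (157 ± 10.1 against 161 ± 13.0, exact two-sided permutation p = 0.68). Tpsb2 stood at 73.8 ± 4.65 and 77.8 ± 5.99 (exact permutation p = 0.28). Mrgprb1 varied least in WT, at 16.8 ± 0.599, and stood at 15.2 ± 2.19 in Zfp36ΔARE skin (exact permutation p = 0.18). Cpa3 had the smallest unadjusted p of the 9 ratios, with 116, 113, 128, 123 and 128 in WT and 113, 107, 123, 78.5 and 102 in Zfp36ΔARE skin. Its ratio was lower by a log2 difference of -0.23 (exact permutation p = 0.04), and after Benjamini-Hochberg adjustment over the 9 ratios the p was 0.36. The log2 differences of Tpsab1 (0.56), Mrgprb2 (0.51) and Hdc (0.32) were larger in size. Mrgprb2 went from 8.92 ± 1.67 to 13.2 ± 4.49 (exact permutation p = 0.11, adjusted 0.43) and Hdc from 18.8 ± 4.90 to 23.3 ± 5.32 (exact permutation p = 0.19, adjusted 0.43). For Ms4a2, Fcer1a and Tpsab1 the p-values of the same exact permutation test were 0.95, 0.45 and 0.29. With 5 against 5 libraries, 0.0079 is the smallest p this test can give, and 0 of the 9 ratios passed after adjustment.

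**Figure D3:**
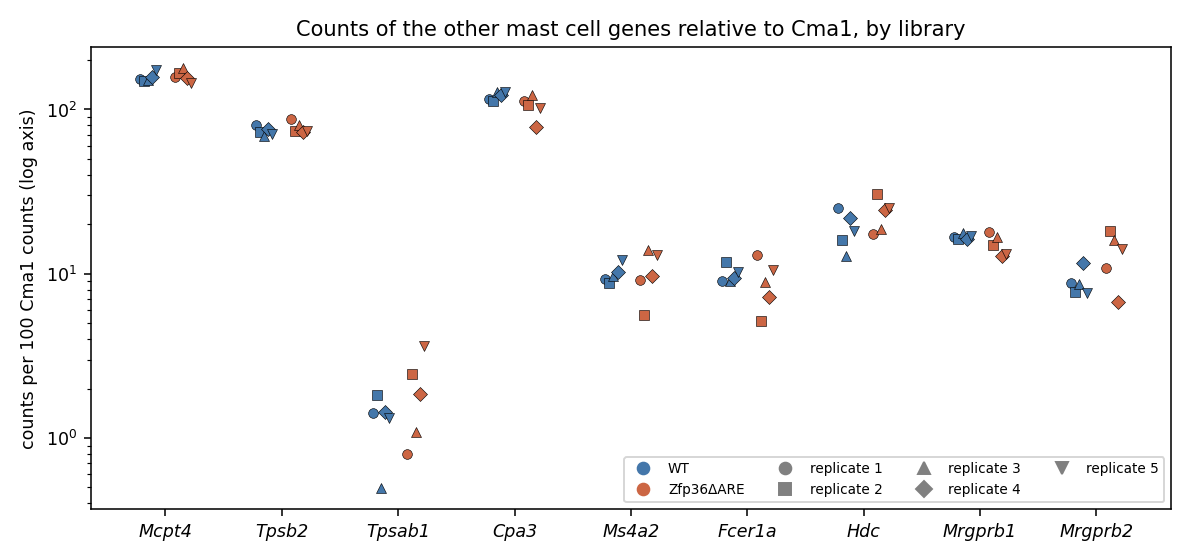
Normalized counts of the other 9 mast cell genes per 100 counts of Cma1 in the same library (vertical axis, log scale), with WT and Zfp36ΔARE in different colours and a symbol per replicate number. The points of Mcpt4 (144 to 178), Tpsb2 and Mrgprb1 of both genotypes lie together, while Ms4a2, Fcer1a (9.01 to 11.8 in WT, 5.15 to 13.0 in Zfp36ΔARE skin) and Mrgprb2 (7.60 to 11.7 and 6.76 to 18.1) span a wider range in Zfp36ΔARE skin.

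Genes other than the 10 were taken from 8 lists of mast cell biology holding 65 genes, of which 64 were in the table and 55 could be tested. Of these 55, 22 were called lower and 0 higher, where 6.64% and 1.67% of all genes tested were called. At any fold, 32 had an edgeR adjusted p under 0.05 as lower and 5 as higher, where 19.1% and 15.3% of all genes tested passed, and 18 did not pass. The median log2 fold change was -0.88. All 5 Zfp36ΔARE libraries lay below all 5 WT libraries in 22 of the 55 genes and above them in 3, where 11.9% and 11.2% of all genes tested did so.

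Of the other granule proteases, the transmembrane tryptase Tpsg1 was called lower. It had 101, 82.4, 138, 58.2 and 74.3 normalized counts in WT and 30.0, 12.7, 25.3, 9.35 and 22.4 in Zfp36ΔARE skin (log2 fold change -2.16, edgeR adjusted p = 0.0047). Granzyme B (Gzmb), a cytotoxic protease also made by some mast cells, stood at log2 0.06 (edgeR adjusted p = 0.87). The defining proteases of mucosal mast cells were all but absent, with 3 raw counts for Mcpt1 and 2 for Mcpt2 summed over the 10 libraries, and Mcpt9, a protease of uterine mast cells, had 0. Cma2 and Ctsg did not pass the filter on low counts.

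Basophils share the IgE receptor and Hdc with mast cells, and their markers were scarce. Cd200r3, an activating receptor of basophils and mast cells, went from 40.6 ± 16.0 to 17.9 ± 11.2 normalized counts (log2 -1.20, edgeR adjusted p = 0.046), and without WT replicate 1 its adjusted p was 0.1. The basophil protease Mcpt8 had 5.53, 12.1, 17.1, 9.71 and 9.29 counts in WT and 20.2, 9.05, 14.3, 77.4 and 25.1 in Zfp36ΔARE skin. Zfp36ΔARE replicate 4 stood apart, and the difference did not pass (log2 1.41, edgeR adjusted p = 0.078). DESeq2 called Mcpt8 higher in all 10 libraries, whereas without Zfp36ΔARE replicate 4 its edgeR adjusted p was 0.19. Prss34, the other basophil protease, had at most 10 raw counts in a library and was not tested.

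Downstream of the IgE receptor, 5 of 13 genes were called lower. The shared γ chain Fcer1g had 1398, 1180, 1269, 943 and 765 normalized counts in WT and 395, 368, 332, 573 and 575 in Zfp36ΔARE skin (log2 -1.31, edgeR adjusted p = 0.0048). The inhibitory phosphatase Inpp5d fell by 1.33 on the log2 scale (adjusted p = 0.0047), and the kinases Lyn and Btk and the adaptor Lcp2 by 1.05, 1.12 and 1.12. The adaptors Lat2 (log2 -0.95) and Gab2 (-0.91), the exchange factor Vav1 (-0.89) and phospholipase Plcg2 (-0.60) passed without reaching 2-fold. The kinase Fyn was higher by 0.68 (adjusted p = 0.0053), whereas Syk (-0.18), the adaptor Lat (-0.11) and Plcg1 (0.18) did not pass. Several of these genes are used by macrophages as well, and all 10 macrophage markers were called lower in the same libraries, whose part in these values was not tested.

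The genes of growth and identity did not move as one. The stem cell factor receptor Kit, needed for mast cell survival and also made by melanocytes, was higher in Zfp36ΔARE skin by 0.29 on the log2 scale. It had 1212, 1169, 1278, 1137 and 1314 counts in WT and 1448, 1619, 1432, 1427 and 1523 in Zfp36ΔARE skin, without overlap (edgeR adjusted p = 0.0089). Mitf, a factor of both melanocytes and mast cells, was higher by 0.64 (adjusted p = 0.012), and Kitl, the ligand of Kit, stood at 0.42 (adjusted p = 0.13). Beside these, 4 of 6 melanocyte markers were called higher and their median log2 fold change was 1.15 (3 called without WT replicates 1 and 3, median 1.06), and their part in the Kit and Mitf values was not tested. The lineage factor Gata1, by contrast, had 38.7, 18.6, 30.5, 23.3 and 18.6 counts in WT and 7.49, 9.05, 5.49, 6.68 and 2.64 in Zfp36ΔARE skin (log2 -1.98, edgeR adjusted p = 0.0053). Gata1 was scarce, with 2 to 42 raw counts per library and at least 10 in 5 WT but only 2 Zfp36ΔARE libraries. Tal1 was called lower at -1.10, and Gata2 (-0.88, adjusted p = 0.022), Il3ra (-0.93) and Csf2rb (-0.99) passed under 2-fold. The IL-33 receptor Il1rl1 was lower by 1.27 on the log2 scale (edgeR adjusted p = 0.017), and its ligand Il33 (-0.84, adjusted p = 0.14) did not pass. For Il33, Zfp36ΔARE replicate 4 held 1386 normalized counts against 290 to 595 in the other Zfp36ΔARE libraries. Without that library Il33 was called lower, as it was by limma-voom in all 10 libraries.

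Mediator synthesis and storage held the largest number of called genes, 7 of 11. The vesicular monoamine transporter Slc18a2, which loads histamine and serotonin into granules, had 144, 93.7, 188, 70.8 and 98.0 counts in WT and 40.5, 21.7, 32.9, 40.1 and 36.9 in Zfp36ΔARE skin (log2 -1.78, edgeR adjusted p = 0.0052). Tph1, the first enzyme of serotonin synthesis, fell by 1.49 and the amine oxidase Maob by 1.24 on the log2 scale. The leukotriene genes Alox5ap, Alox5 and Ltc4s fell by 1.25, 1.09 and 1.09, and the prostaglandin D synthase Hpgds by 1.02. Macrophages make leukotrienes and prostaglandins too, and the part of their lower markers in these values, and in those of the surface receptors, was not tested. The granule proteoglycan core Srgn (-0.62) and Ptgs1 (-0.54) passed under 2-fold. The heparin-modifying enzyme Ndst2 (-0.03) and the steroid-forming enzyme Cyp11a1 (-0.70, adjusted p = 0.089) did not pass.

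The machinery of granule release, which most secretory cells share, had 0 of 8 genes called. Cd63, a granule membrane protein, stood at log2 -0.27 (edgeR adjusted p = 0.066), and the fusion proteins Vamp8 (0.17), Stx4a (-0.04), Unc13d (-0.15) and Rab27a (0.06) did not pass. Stxbp2 (0.29) and Rab27b (0.43) were higher and Snap23 (-0.25) lower with an adjusted p under 0.05.

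Of the other surface receptors, 4 of 5 tested were called lower. These were the inhibitory receptors Cd300a (log2 -1.60) and Milr1 (-1.26), the leukotriene receptor Cysltr1 (-1.16) and the adenosine receptor Adora3 (-1.15). Mrgprb3, a further member of the Mrgprb cluster, stood at -0.52 (edgeR adjusted p = 0.21). On the receiving side of histamine, the methyltransferase Hnmt, which breaks it down, went from 166 ± 40.8 to 64.3 ± 11.5 counts (log2 -1.37, edgeR adjusted p = 0.004). The receptors Hrh1 (0.17), Hrh2 (-0.63) and Hrh4 (-0.60) did not pass.

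Of the 22 called genes of these lists, 13 were called whichever library was left out. The other 9 (Cd200r3, Lyn, Tal1, Ltc4s, Alox5, Adora3, Lcp2, Hpgds and Maob) lost the call in at least 1 such fit. Leaving out WT replicate 1 or WT replicate 3 left 16 and 15 of the 22, and Zfp36ΔARE replicates 2 or 3 left 18 each. Without both WT replicates 1 and 3, 10 were called, where 2.11% of all genes tested were called lower. The 10 were Tpsg1, Fcer1g, Inpp5d, Gata1, Slc18a2, Tph1, Alox5ap, Milr1, Cd300a and Hnmt. In that fit the other 12 lay under 2-fold, of which Lyn (log2 -0.86), Btk (-0.84), Hpgds (-0.90), Ltc4s (-0.86), Alox5 (-0.83), Maob (-0.81) and Cysltr1 (-0.95) had an edgeR adjusted p under 0.05. Il1rl1 (-0.99), Adora3 (-0.96), Lcp2 (-0.77), Cd200r3 (-0.73) and Tal1 (-0.54) did not pass there. With the replicate number as a block, 17 were called, Cd200r3, Lcp2, Il1rl1, Tal1 and Adora3 being lost.

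**Figure D4:**
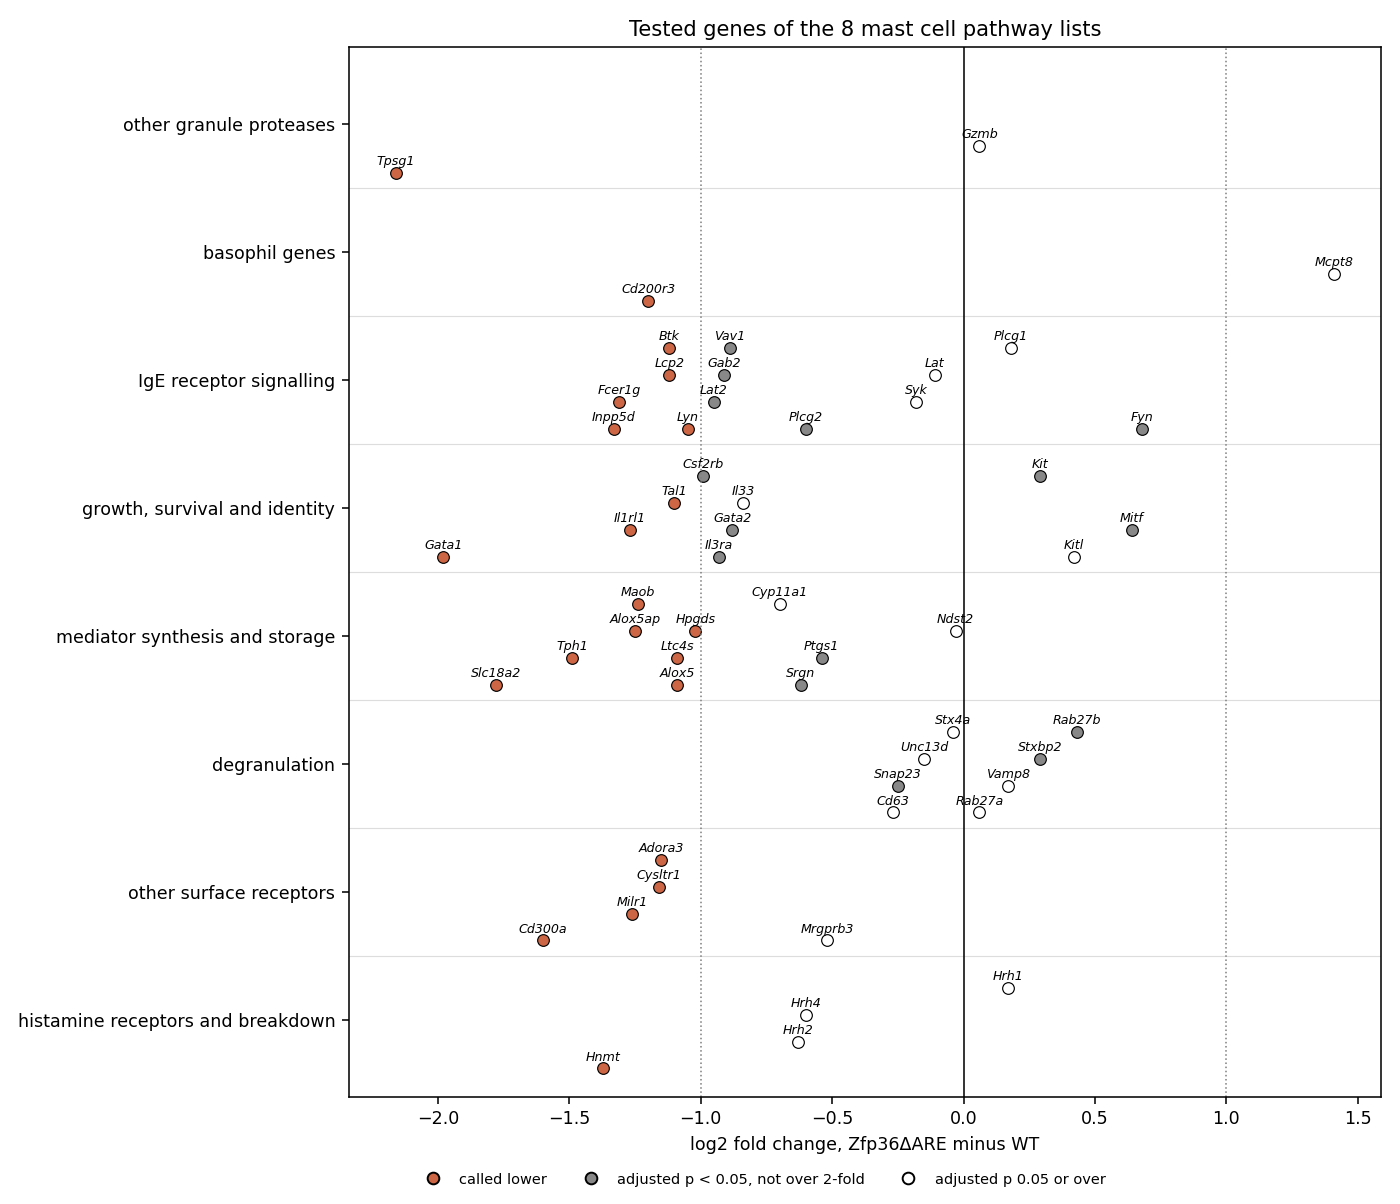
Log2 fold change (horizontal axis, Zfp36ΔARE minus WT) of the 55 tested genes of the 8 mast cell lists, 1 list per band, filled by outcome, with dotted lines at 2-fold in each direction. The 22 called genes lie to the left of -1, from Tpsg1 at -2.16 to Hpgds at -1.02, whereas the 8 degranulation genes lie between -0.27 and 0.43.

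Markers of other skin cells differed between the same libraries, where 6.64% of all genes tested were called lower and 1.67% higher. All 10 macrophage markers were called lower, with a median log2 fold change of -1.43 and a summed level of 25547 to 50782 normalized counts in WT and 10708 to 16999 in Zfp36ΔARE skin. Endothelial markers were called lower in 4 of 8 (median -0.98, sums 5730 to 12544 and 3534 to 4602), adipocyte markers in 6 of 8 (-1.19, sums 47102 to 97257 and 32259 to 42788), fibroblast markers in 2 of 8 (-0.69, sums 168329 to 356667 and 95376 to 266667) and Schwann cell markers in 1 of 6 (-0.43). Skeletal muscle markers were called lower in 8 of 8 (-1.56). Outside the macrophage list most of these calls rested on WT replicates 1 and 3, without which 9 of 10 macrophage markers were called lower, but only 1 of 8 muscle, 1 of 8 adipocyte, 1 of 8 fibroblast, 0 of 8 endothelial and 0 of 6 Schwann cell markers. In that fit 2.11% of all genes tested were called lower, and 6 of 8 adipocyte and 6 of 8 endothelial markers still had an edgeR adjusted p under 0.05 at a smaller fold. T cell markers were called in 0 of 6 (median 0.04, sums 578 to 1025 and 640 to 848), and basal keratinocyte markers in 0 of 7 (-0.17). Hair shaft markers did not overlap between the groups and had a median of 2.33, but edgeR called 0 of 8 in all libraries and 8 of 8 as higher without WT replicates 1 and 3, with a median of 1.65. The mast cell genes had a median of -1.69 in all 10 libraries and of -1.24 without WT replicates 1 and 3. The part of tissue composition in these values was not tested.

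**Figure D5:**
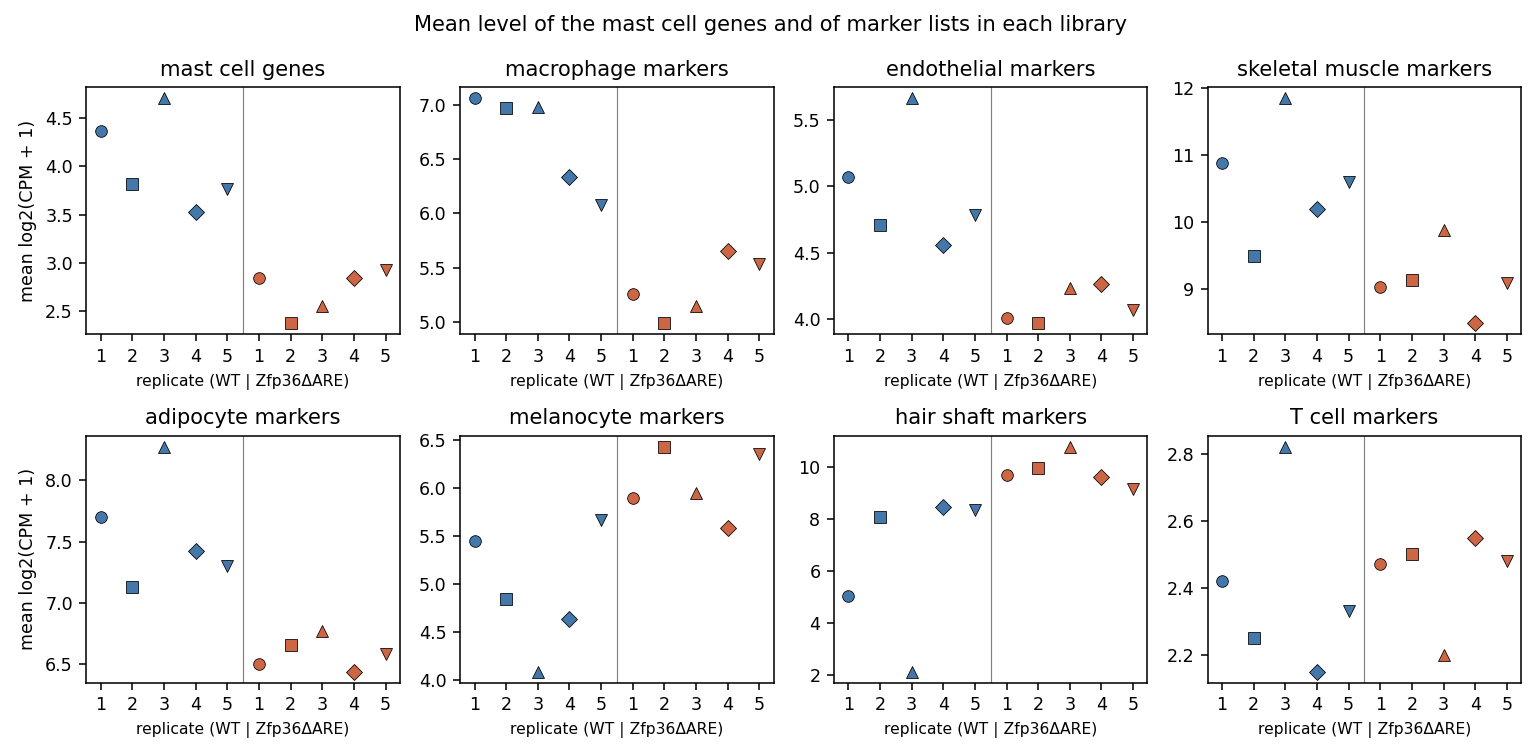
Mean log2(CPM + 1) of the 10 mast cell genes and of 7 marker lists in each library (horizontal axis, replicates 1 to 5 of WT and then of Zfp36ΔARE). The mast cell genes and the macrophage, endothelial and adipocyte markers lie lower in all Zfp36ΔARE libraries than in any WT library. The T cell markers overlap, and hair shaft markers are lowest in WT replicates 1 (5.02) and 3 (2.12).

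The genes whose variation within genotypes was most like that of the 10 were sought among the 13682 other genes, the lists included, with a mean of at least 50 normalized counts. By Pearson's r with the mean of the 10 over the 10 libraries, they were Adgre5, Lat2 and Slc18a2 (0.98), Fn1 and Pde8a (0.97), Hgf, Cdon, Traf3ip3 and Rgag4 (0.96) and Clmp (0.95). Slc18a2 and Lat2 are themselves mast cell genes of the lists above, whereas Fn1, fibronectin, is a matrix gene made by many cells, with 16534 ± 4457 normalized counts in WT and 8156 ± 865 in Zfp36ΔARE skin. The same r was 0.15 for Kit, 0.75 for Gata2, 0.76 for Tpsg1 and -0.90 for Mitf. These r values are a description, with no test, and the mean they are set against is highest in WT replicates 3 and 1.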

How the data were processed

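RNA-Seq counts were analysed for 10 libraries of DMBA/TPA-treated skin, 5 WT and 5 Zfp36ΔARE, grouped by the genotype in the labels. Reads of low mean quality were discarded by the authors, who mapped the remaining pairs to mm10 by STAR 2.5.2b and assigned fragments to genes by featureCounts (Subread 1.5.0-p1). The counts were deposited without normalization for 24454 genes. Whether counting used strand, and how fragments matching several genes were treated, is not given in the sources used here. Rows with no gene name numbered 2, held 7.38e-05% of the counts and were left out.

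In R 4.3.3, edgeR 4.0.16 computed TMM factors, filtered genes with filterByExpr and fitted its quasi-likelihood model (robust, genotype as the only term) to 15543 genes, with p-values adjusted by Benjamini and Hochberg's method. Calls needed a fold change above 2 at an adjusted p below 0.05. The median biological coefficient of variation was 14.9%. Single values were compared by an exact permutation test, two-sided, whose smallest p for these group sizes is 0.00794. Scripts were tested on simulated counts. Alternatives were DESeq2 1.42.0 and limma-voom (limma 3.58.1), other scalings and filters, a replicate block, and left-out libraries. The fit to libraries without Y-linked counts was added after the data were seen.

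The 10 genes and all lists were chosen with earlier results of these data known. Genes named are the 10 members, and up to 4 genes with the most counts and every called gene of each mast cell list. Zfp36, Xist, the 10 genes most like the members and further tested genes of those lists are also named. Those further genes were added after their values were seen. Positions come from GENCODE and promoter sequences from RefSeq, both on GRCm38. Protein sequences were not used here.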

Additional observations from a re-analysis of the deposited data

Results flagged for a closer look

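Among 148 groups of 5 values (the 10 mast cell genes, Zfp36, the tested list genes and the genes most like the members, in each genotype), 6 held a library whose gap to the nearest other was large for the group's range by Dixon's criterion, where chance gives about 1 in 20 groups, or 7.4. None of the 6 was in the 10 mast cell genes. Zfp36ΔARE replicate 4 was the high library in 3 of them. It held 77.4 normalized counts of the basophil protease Mcpt8 against 9.05 to 25.1 in the other Zfp36ΔARE libraries, 1386 of the alarmin Il33 against 290 to 595, and 2494 of Stx4a against 2244 to 2316. WT replicate 3 held 1633 of Ndst2 against 1441 to 1493 in the other WT libraries and 517 of Unc13d against 391 to 423. Zfp36ΔARE replicate 1 held 15.7 of the histamine receptor Hrh2 against 7.69 to 9.35.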

How the results depend on the processing

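The count of mast cell genes called lower was 9 under DESeq2, its size factors in edgeR, non-robust dispersions, upper-quartile scaling, the replicate block, no filter and a filter of 10 counts in each library (9 genes tested), and 10 under limma-voom, where Tpsab1 passed (log2 -1.19, adjusted p = 0.045). Leaving out 1 library gave 8 to 10 genes, a median log2 fold change of -1.83 to -1.44, and 839 (without WT replicate 3) to 1521 genes called over the whole table, against 1292 in all libraries. Without WT replicate 3, Mrgprb2 stood at -0.96, and without Zfp36ΔARE replicate 5, Tpsab1 at -1.46. Without WT replicates 1 and 3, 526 genes were called over the table, 10 instead of 22 in the mast cell lists and 23 instead of 35 in the other cell lists (15 of the 35 and 8 hair shaft genes), and the median was -1.24, with Hdc at -0.92 and Mrgprb2 at -0.74. In the libraries without Y-linked counts, 0 genes were called over the table, among the 10 genes and in either kind of list, and Zfp36 stood at 1.43 (edgeR adjusted p = 0.28). There Cma1 stood at -1.60, Mcpt4 -1.58, Tpsb2 -1.35, Cpa3 -1.71, Ms4a2 -1.71, Fcer1a -1.17, Hdc -1.65, Mrgprb1 -1.51, Mrgprb2 -1.29 and Tpsab1 -2.12. The direction was the same under these alternatives for the 10 genes and Zfp36, but of the 55 tested list genes 5 changed sign under at least 1 (Gzmb, Lat, Kitl, Rab27a and Stx4a), of which 0 had passed. The cause of these differences was not tested, nor was the part of the smaller number of libraries in the fits that left libraries out.

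The groups share replicate numbers, but libraries of the same number did not deviate together (r = -0.192 to 0.0851 over genes, and each WT library correlated best with another number), so the numbers are not taken as pairs. With the replicate block, 983 genes were called over the table and 9 of the 10 mast cell genes, at edgeR adjusted p-values of 0.027 to 0.042, 17 of the mast cell list genes and 35 of the other cell list genes, with a median of -1.65 and Zfp36 at 1.33.

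Depth limited Tpsab1, Gata1, Mcpt8 and the untested proteases, and the permutation test cannot give a p below 0.00794.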
